A study of Mus musculus with 3 samples.

Results

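The BCL2 family decides whether a cell dies through its mitochondria. Anti-apoptotic members bind and restrain the rest of the family, BH3-only members carry stress and loss of growth factor signals to it, and the effectors open the outer mitochondrial membrane so that cytochrome c reaches the cytosol. In mast cells, signals from KIT through PI3K to FOXO factors are known to restrain BH3-only members. Described here, gene by gene, are 10 members: the anti-apoptotic *Bcl2*, *Bcl2l1*, *Mcl1* and *Bcl2a1a*, the BH3-only *Bcl2l11*, *Bad*, *Bbc3* and *Pmaip1*, and the effectors *Bax* and *Bak1*. They were found by gene name on the array, and 9 of the 10 have a probe, out of 27951 gene names with a tested probe. These 9 genes have 18 of the 41174 gene probes and 45 of the 43379 gene spots. *Bcl2a1a* has 0 probes under its own name.

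The cells were mast cell progenitors (MCps), immature mast cells from the marrow of 3 WT and 3 *p85α−/−* mice, which lack the p85α regulatory subunit of class IA PI3K. Low-density mononuclear marrow cells of both genotypes grew in IL-3 (10 ng/mL) for 7 days, were sorted as cells positive for KIT and for the IgE receptor, and then received the KIT ligand SCF (100 ng/mL) for 48 hours, so that no unstimulated culture was measured. The sources used here give neither strain nor age of these mice. The RNA of few cells was amplified as cDNA by global PCR, and each of 3 Agilent arrays took the cDNA of 1 WT culture in Cy3 and 1 *p85α−/−* culture in Cy5, so dye and genotype cannot be told apart. *Pik3r1*, the gene of p85α, has 4 probes with mean log2 ratios of 0.59, −0.58, 0.32 and −0.04, from which the genotype of a channel cannot be read, so each direction is that of cultures labeled *p85α−/−* against cultures labeled WT. The *Pik3r1* probe at 0.59 was 0.15, 0.91 and 0.73 without array 1, 2 or 3, and 1.35 with each array centred on its median. Across probes, which are not independent replicates, the log2 ratios of arrays 1 and 3 correlated at r = 0.17, those of arrays 1 and 2 at 0.01 and those of arrays 2 and 3 at −0.03. The median signal was 76.1, 71.5 and 141.2 in the WT channel and 210.9, 517.3 and 206.6 in the *p85α−/−* channel of arrays 1, 2 and 3.

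The question put to these values is whether SCF-treated MCps labeled *p85α−/−* differ from WT in the RNA of each BCL2 family member. *Bbc3*, which encodes PUMA, was the one member of 9 whose brightest probe was higher in *p85α−/−* cultures on all 3 arrays, at 1.97-fold, where 25.8% of all tested probes had 1 sign on every array. The other 8 brightest probes had log2 ratios of both signs on the 3 arrays, running for *Mcl1* from −4.56 to 4.53. No member passed the test: limma's moderated test gave 0 of 18 probes an adjusted p under 0.05, as it did for 0% of all 41157 tested probes, whose lowest adjusted p was 0.763. At an unadjusted p under 0.05 the count was also 0 of 18 by limma and by the methods' t-test, unpaired or paired, against 1829, 1755 and 1501 of all tested probes. With both a fold change of at least 1.5, the study's threshold, and an unadjusted limma p under 0.05 (both criteria), 0 of 18 were called, whereas 2.78% of all tested probes met them on the higher and 1.66% on the lower side. Of all probes past both criteria, 62.6% were higher in *p85α−/−* cultures, 91.4% under median centring and 47.5% without array 2. All WT channels lay below all *p85α−/−* channels for 3 of 18 probes, 1 each of *Bcl2*, *Bad* and *Bbc3*, and the groups were apart in either direction for 10.5% of all tested probes. The *Bad* probe among them is annotated to the strand opposite to the brighter *Bad* probe. The number of arrays limits the precision of every ratio, and fewer cells of a type and less RNA per cell cannot be told apart.

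**Figure D1:**
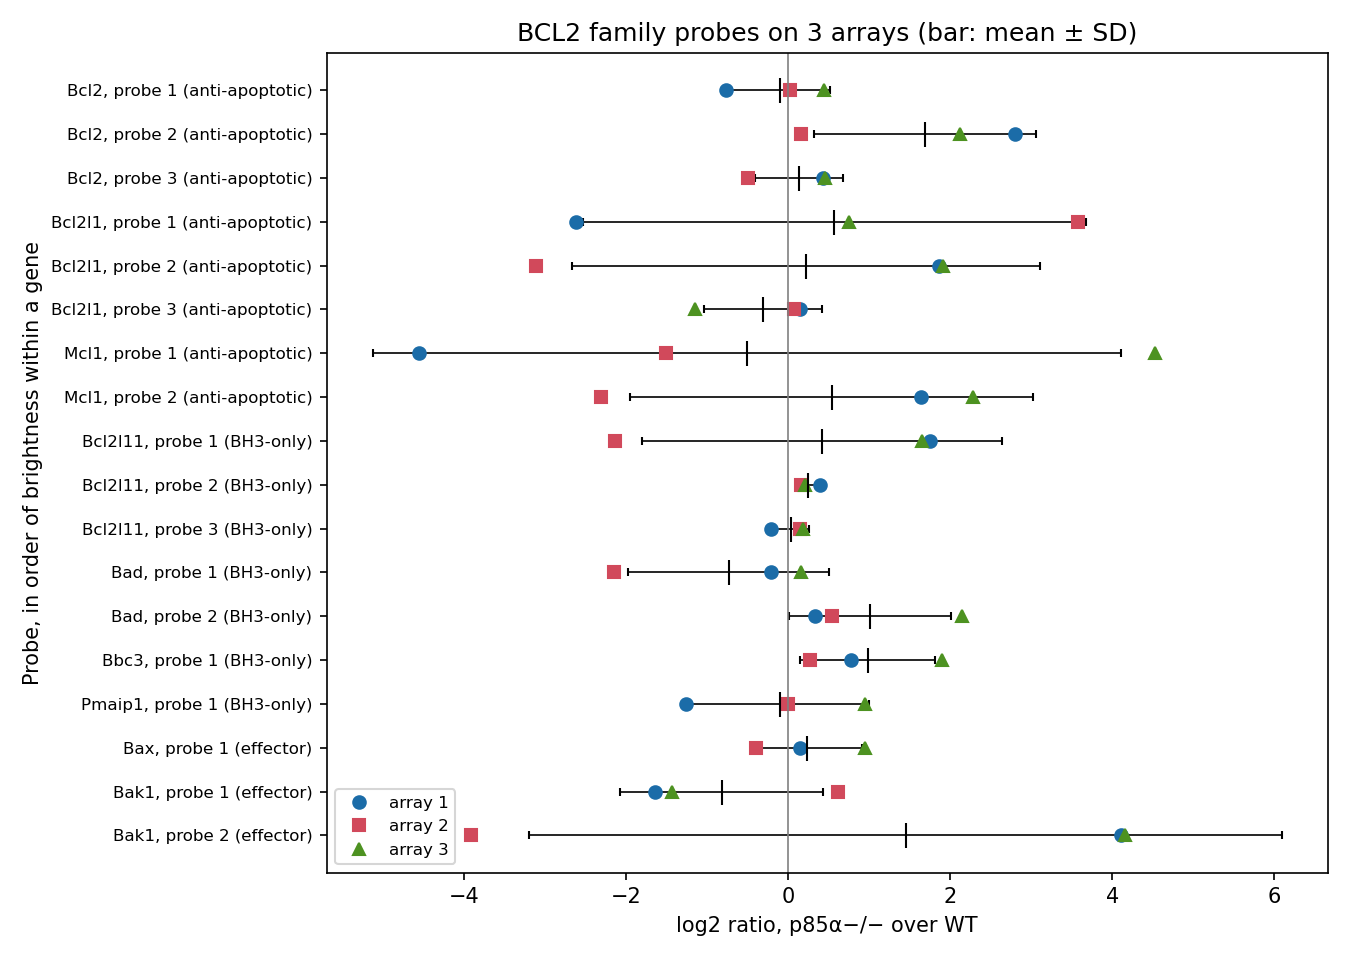
Log2 ratio of *p85α−/−* over WT for the 18 probes of 9 members, with 1 symbol per array and the mean ± SD (n = 3 arrays) as a black bar, and probes of a gene numbered in order of brightness. The 4 probes with all symbols right of 0 are the second of *Bcl2*, *Bcl2l11* and *Bad* and that of *Bbc3*.

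Levels are normalized log2 intensities, and the probe with the highest mean over the 6 channels, the brightest, stands for its gene. Among the anti-apoptotic members, *Bcl2* is the founding survival protein of the family. Its brightest probe, annotated to transcript variant 2 (chromosome 1, 106612249 to 106612308), read 14.28, 13.71 and 13.83 in WT and 13.52, 13.73 and 14.27 in *p85α−/−* cultures on arrays 1, 2 and 3. The groups overlapped, and WT was higher on array 1 but lower on array 3. The mean log2 ratio was −0.10 ± 0.61 (SD, n = 3; adjusted p of 0.976 by limma), and it was 1.27 under median centring of each array. A probe for transcript variant 1, 174151 bases away (106438098 to 106438157), read 7.62, 8.49 and 7.00 in WT and 10.42, 8.64 and 9.12 in *p85α−/−* cultures. Here the groups did not overlap, although the highest WT and the lowest *p85α−/−* channel, both of array 2, differed by only 0.15. This probe had a mean log2 ratio of 1.69 ± 1.37, or 3.22-fold, with a 95% interval from −0.10 to 3.47 (limma, adjusted p of 0.908). Under 5 other normalizations and background corrections its ratio ran from 1.77 to 2.95. The dimmest *Bcl2* probe had ratios of 0.43, −0.50 and 0.45, and its mean of 0.13 ± 0.55 was −0.12 under median centring and −0.00287 with the processed signals of the software.

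*Bcl2l1* encodes BCL-XL and, by splicing, the pro-apoptotic BCL-XS, which the array's annotation of its probes does not tell apart. Its brightest probe (chromosome 2, 152570306 to 152570365) read 12.79, 8.35 and 8.94 in WT and 10.17, 11.93 and 9.69 in *p85α−/−* cultures. WT was far higher on array 1 and far lower on array 2, and the mean log2 ratio of 0.57 ± 3.11 (adjusted p of 0.962 by limma) was much smaller than the spread, and was 1.37 under median centring. The second probe, at 152521752 to 152521811, had log2 ratios of 1.86, −3.12 and 1.91, opposite in sign to the brightest on arrays 1 and 2. Its WT levels were 9.17, 11.52 and 9.90 and its *p85α−/−* levels 11.03, 8.40 and 11.81. Array 2 was the one with the high WT and the low *p85α−/−* channel. The dimmest probe, 545 bases from the brightest, had a mean of −0.31 ± 0.73, which was 0.28 under median centring. On array 2 the brighter pair of *Bcl2l1* probes thus had large ratios of opposite sign, 3.58 and −3.12.

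*Mcl1* encodes a short-lived survival protein. At its brightest probe (chromosome 3, 95536882 to 95536941) WT cultures read 12.89, 11.43 and 8.23 and *p85α−/−* cultures 8.34, 9.92 and 12.76. On arrays 1 and 3 a high culture of one genotype was matched with a low one of the other, and both groups span nearly the same range. The mean log2 ratio was −0.51 ± 4.62 (adjusted p of 0.980 by limma) and 0.41 under median centring. Its SD was larger than that of 99.9% of all tested probes. The second *Mcl1* probe, 1312 bases away, had ratios of 1.64, −2.31 and 2.28 (mean 0.54 ± 2.49), with the opposite sign of the brightest probe on array 1. Its mean was 1.48 with the processed signals and 1.67 with the log ratio of the software.

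*Bcl2a1a* encodes A1, a survival protein induced in activated mast cells, and belongs to a cluster of near-identical genes on chromosome 9. No probe carries its name, but that of *Bcl2a1b* is annotated to transcripts of *Bcl2a1a* and *Bcl2a1d* as well. It read 12.48, 9.62 and 11.03 in WT and 11.38, 10.47 and 9.74 in *p85α−/−* cultures, with ratios of −1.09, 0.85 and −1.29. The groups overlapped, and array 2 had the other sign.

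**Figure D2:**
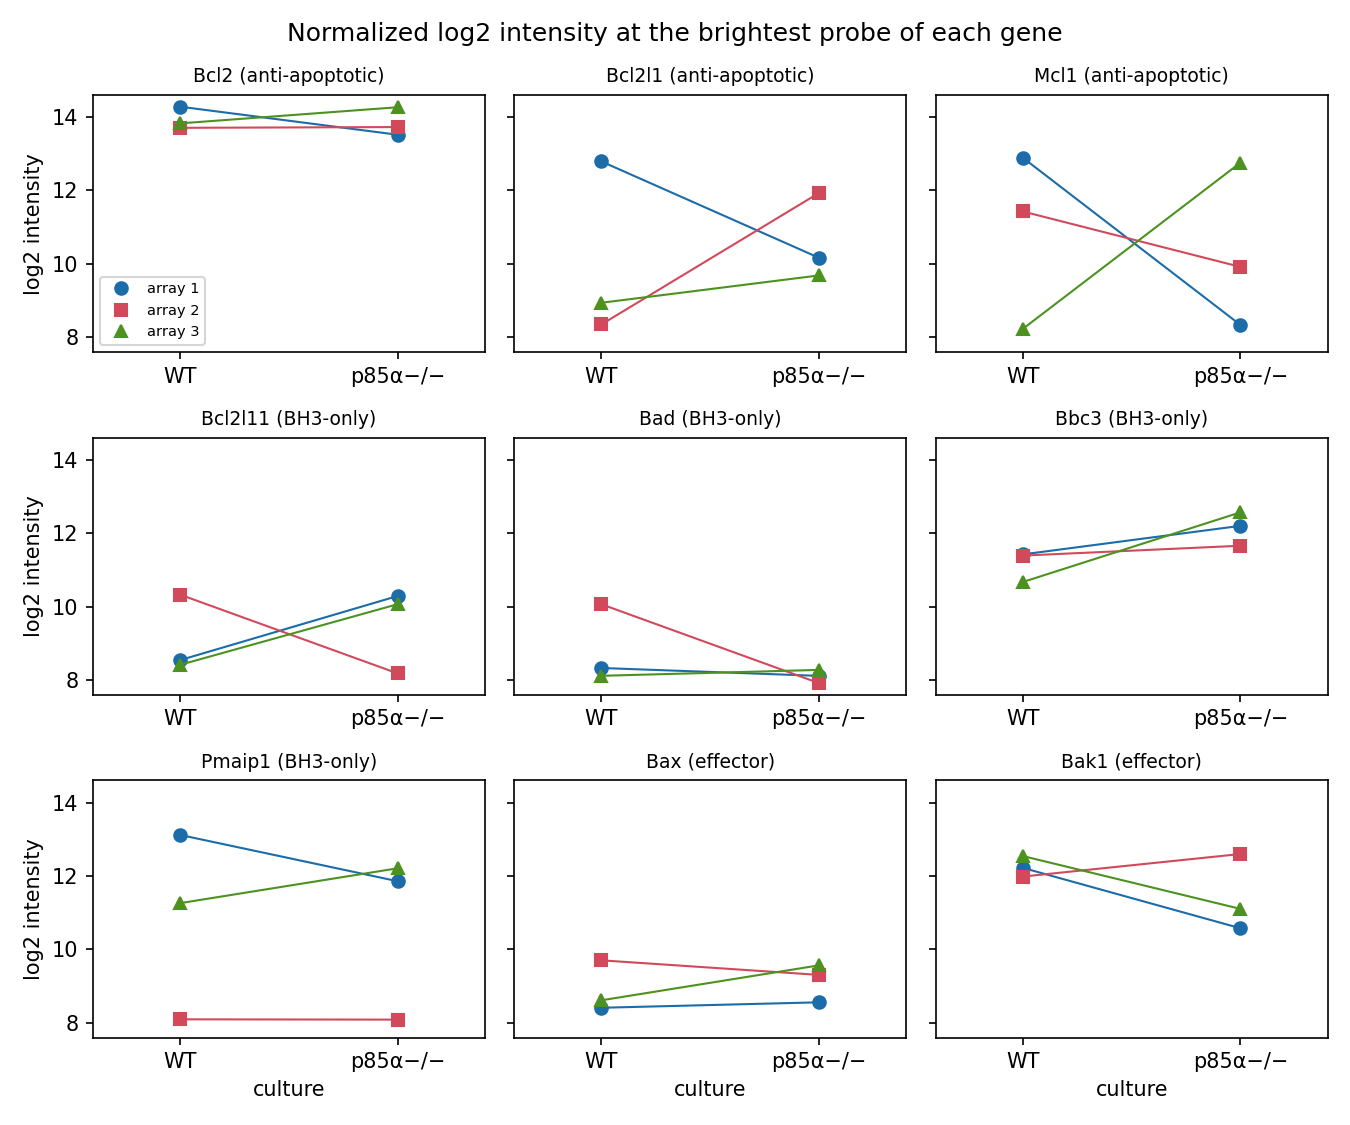
Normalized log2 intensity at the brightest probe of each of the 9 members with a probe, in WT and *p85α−/−* cultures, with the cultures of 1 array joined by a line. *Bbc3* is the one panel in which all 3 lines run upward, by 0.27 to 1.90.

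*Bcl2l11* encodes BIM, the BH3-only protein whose transcription FOXO factors drive when growth factors are withdrawn. Its brightest probe (chromosome 2, 127903168 to 127903227) read 8.54, 10.33 and 8.41 in WT and 10.29, 8.18 and 10.07 in *p85α−/−* cultures. *Bcl2l11* was higher in *p85α−/−* cultures on arrays 1 and 3 and lower by a similar amount on array 2. The mean log2 ratio was 0.42 ± 2.22 (adjusted p of 0.961 by limma) and 1.16 under median centring. Without array 2 it was 1.70 and met both criteria, whereas it was −0.25 without array 1 and −0.20 without array 3. A second probe, 15158 bases away and spanning 127888010 to 127899105, had ratios of 0.39, 0.16 and 0.20. Its mean of 0.25 ± 0.12 was 0.77 with the processed signals and 0.80 with the log ratio of the software. The third probe, well above background in 1 of 3 WT channels, had a mean of 0.04 ± 0.22, which was −0.18 under median centring, 0.62 with the processed signals and 0.79 with the log ratio of the software.

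*Bad* encodes a BH3-only protein that AKT holds inactive by phosphorylation, a step that RNA levels do not show. Its brightest probe (chromosome 19, 6761992 to 6762051) read 8.33, 10.06 and 8.11 in WT and 8.11, 7.91 and 8.28 in *p85α−/−* cultures. The WT culture of array 2 stood above all others, which lay close together. The mean log2 ratio of −0.73 ± 1.24 (adjusted p of 0.908 by limma) was −0.03 without array 2 and −0.32 under median centring. The other *Bad* probe, 8976 bases away and annotated to the opposite strand, read 7.25, 7.36 and 7.16 in WT and 7.58, 7.90 and 9.31 in *p85α−/−* cultures. These groups did not overlap, but array 3 stood apart, with ratios of 0.33, 0.54 and 2.15. The mean of 1.01 ± 0.997 was 1.92 with the processed signals and 1.93 with the log ratio of the software.

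*Bbc3* encodes PUMA, a BH3-only protein induced by p53 and by FOXO factors. Its probe (chromosome 7, 14080459 to 14080518) read 11.42, 11.39 and 10.67 in WT and 12.20, 11.66 and 12.57 in *p85α−/−* cultures. The groups did not overlap, and array 3 had both the lowest WT and the highest *p85α−/−* channel. The mean log2 ratio was 0.98 ± 0.83, larger than its spread, with a 95% interval from −0.22 to 2.18 (limma, adjusted p of 0.908). Under 5 other normalizations and background corrections it ran from 0.96 to 2.09. It met both criteria under median centring (2.09), as did 6.56% of all tested probes, and with limma on unpaired channels. Of all tested probes, 85.1% had a smaller absolute mean.

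*Pmaip1* encodes NOXA, a BH3-only protein that binds MCL1. Its probe (chromosome 18, 66857729 to 66857788) read 13.12, 8.09 and 11.26 in WT and 11.86, 8.08 and 12.21 in *p85α−/−* cultures. Both cultures of array 2 were low, so that *Pmaip1* varied far more between arrays (SD 2.54 in WT and 2.29 in *p85α−/−*) than between genotypes. The mean log2 ratio was −0.11 ± 1.11 (adjusted p of 0.985 by limma), 1.36 under median centring and 0.05 with the log ratio of the software.

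The effectors *Bax* and *Bak1* form the pores of the outer mitochondrial membrane. *Bax* (chromosome 7, 41641827 to 41641982) read 8.41, 9.70 and 8.61 in WT and 8.56, 9.30 and 9.56 in *p85α−/−* cultures, with a mean log2 ratio of 0.23 ± 0.68 (adjusted p of 0.936 by limma) that was 0.78 under median centring. The groups overlapped and the sign differed on array 2. *Bak1* at its brightest probe (chromosome 17, 25205887 to 25205946) read 12.22, 11.98 and 12.54 in WT and 10.57, 12.60 and 11.10 in *p85α−/−* cultures. WT cultures were alike, while *p85α−/−* cultures were lower on arrays 1 and 3 and higher on array 2. The mean of −0.82 ± 1.25 (adjusted p of 0.908 by limma) was 0.22 under median centring. The second *Bak1* probe, 1153 bases away, read 9.26, 13.99 and 9.41 in WT and 13.37, 10.08 and 13.57 in *p85α−/−* cultures. Its ratios of 4.11, −3.92 and 4.15 had the sign opposite to the brightest probe on every array. The mean of 1.45 ± 4.65 was 2.38 under median centring.

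The classes did not part in a constant direction. The median log2 ratio of the 3 anti-apoptotic members was −2.63, 0.02 and 0.74 on arrays 1, 2 and 3, that of the 4 BH3-only members 0.28, −1.08 and 1.30, and that of the 2 effectors −0.75, 0.11 and −0.24. Over the mean of the arrays these medians were −0.10, 0.16 and −0.29, beside −0.05 for all tested probes. Under median centring, which moved the median of all tested probes to 0.09, all 3 class medians were positive, at 1.27 for anti-apoptotic, 1.26 for BH3-only and 0.50 for effector members. The anti-apoptotic median was below the BH3-only median on arrays 1 and 3 and above it on array 2, with a mean difference of −0.79 ± 2.01. The effector median was likewise below the BH3-only median on arrays 1 and 3 (mean difference −0.46 ± 1.45). Effectors minus anti-apoptotic members gave 1.88, 0.09 and −0.99. Each of these differences was smaller than its spread between arrays. Of the 9 members, 4 had a mean above 0 and 5 below, while 8 were above 0 under median centring and 8 when a gene's probes were averaged. Without array 1, 2 or 3 the number above 0 was 6, 3 and 2. Of the 9, 1 (11.1%), *Bbc3*, had the same sign on all arrays, where 25.8% of all tested probes did. Over all member probes it was 4 of 18 (22.2%).

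Among the 18 probes, 7 had array 2 as the one array of the other sign, or 38.9%, where 29.8% of all tested probes did. These 7 were the third *Bcl2* probe, the second of *Bcl2l1* and *Mcl1*, the brightest of *Bcl2l11*, *Bax* and both of *Bak1*. Without array 2, 6 of 18 probes met both criteria by limma, beside 7.69% of the tested probes, and each had an adjusted p of 0.592 by limma. They were the second probe of *Bcl2* (2.46), *Bcl2l1* (1.89) and *Mcl1* (1.96), the brightest of *Bcl2l11* (1.70) and *Bak1* (−1.54), and the second of *Bak1* (4.13). *Bak1* thus had 1 probe on each side, each past both criteria. Without array 1 or without array 3, 0 of 18 met them, and 0 of 18 had an unadjusted p under 0.05 by limma, where 3.78% and 4.25% of the tested probes met both criteria. The median of the listed neutrophil genes was lowest on array 2, although *Ctsg*, at 1.86, fell to 1.57 without that array. Of 10 such genes, 7 had a mean log2 ratio above 0, and their median was 1.71, 0.09 and 2.03 on arrays 1, 2 and 3. Their summed level was 13.42, 14.28 and 13.28 in WT and 16.15, 12.76 and 17.82 in *p85α−/−* cultures, with *Mpo*, a granule peroxidase, as the brightest, and 8 of the 10 were well above background in all WT and 9 in all *p85α−/−* channels. The cultures had been sorted as positive for KIT and the IgE receptor before SCF was added, and their purity after SCF was not analysed here. The part of neutrophil genes or of neutrophils in the ratios of *Bcl2l11*, *Bak1* and the other members was not tested.

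Repeated spots show the noise of a spot within an array, whereas arrays also differ in their cultures, amplification and hybridization, which spots of 1 array share. *Bcl2* (second probe), *Bcl2l1* (second probe) and *Bax* were each spotted 10 times on every array. For *Bcl2* the SD of the log2 ratio was 0.0757 between spots and 1.37 between arrays, 18.2 times as much. For *Bax* it was 0.0856 between spots and 0.679 between arrays. *Bcl2l1* gave 0.411 and 2.89, and its larger SD between spots came from 1 spot on array 1. That spot had a WT local background of 1715, where the other 9 had 31 to 36, and a ratio of 4.99, where the others ran from 1.37 to 1.64. With the median over spots in place of the mean, an alternative chosen after seeing the data, the second *Bcl2l1* probe became the brightest and the mean log2 ratio of the gene was 0.07. Over all 245 probes spotted at least 10 times, the median SD was 0.685 between arrays and 0.0863 between spots.

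**Figure D3:**
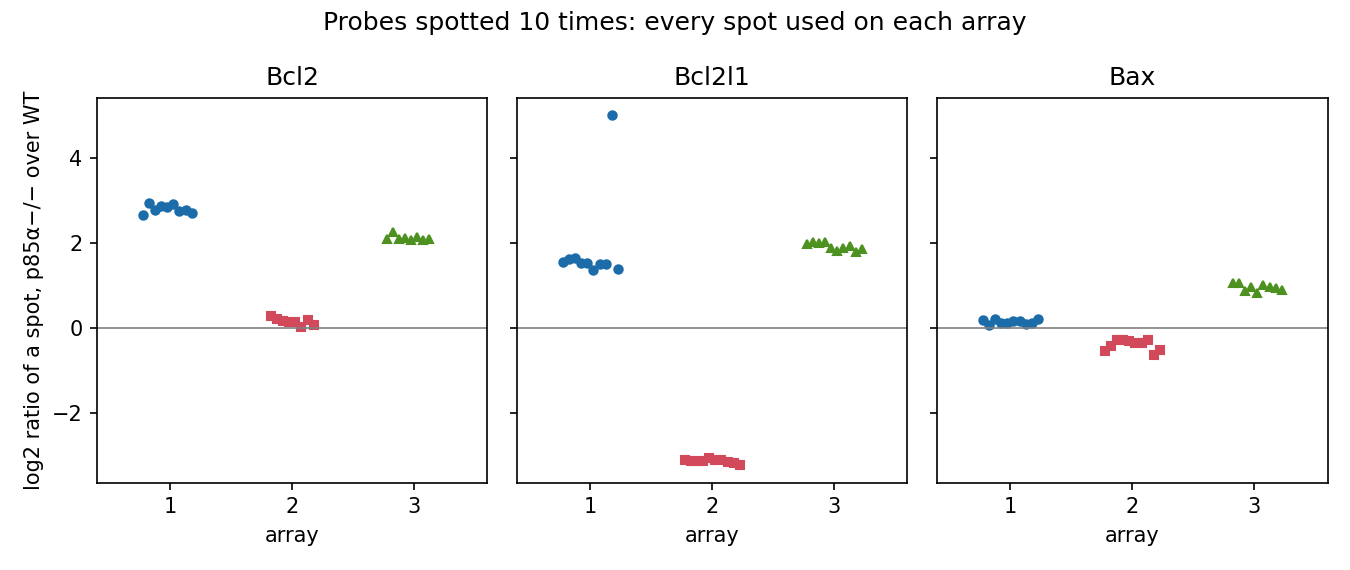
Log2 ratio of every used spot of the 3 probes spotted 10 times, by array (outlier-flagged spots left out, so that *Bcl2* has 8 or 9 and *Bax* 9 or 10). Spots of an array lie together and arrays lie apart, except for 1 *Bcl2l1* spot at 4.99 on array 1.

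The probes of a gene often pointed to opposite sides of 0. Of the 6 members with several probes, 5 had probe means of both signs, and *Bcl2l11* did not. The probe means spanned 2.27 for *Bak1*, 1.74 for *Bad*, 1.05 for *Mcl1*, 1.79 for *Bcl2*, 0.88 for *Bcl2l1* and 0.38 for *Bcl2l11*. Among all genes, the median span was 0.51 for those with 2 probes, 44.2% of which had both signs, and 0.88 for those with 3 probes, 70.3% of which had both signs. Thus *Bak1* and *Bad* spanned more than 96.2% and 91.9% of the genes with as many probes, and *Bcl2l11* more than 16.0%. A gene-level value of *Bcl2*, *Mcl1*, *Bad* or *Bak1* therefore turned with the choice of probes, and the mean over all probes was 0.57, 0.01, 0.14 and 0.31 for these 4 genes. For *Bad* the span and the mean include the dimmer probe, which is annotated to the strand opposite to the brightest.

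Of 18 further BCL2 family genes, 16 have a probe. In the lists that follow, counts of genes past both criteria stand beside 4.44% of all tested probes. Of these 16, 6 had a mean log2 ratio above 0 and 10 below, with a median of −0.24 that was 0.32 under median centring. It was −0.32, −0.26 and −0.06 without array 1, 2 or 3. *Bcl2l13*, a mitochondrial family member, met both criteria with −1.06 ± 0.66 and was lower on all 3 arrays, but had an adjusted p of 0.908 by limma. It no longer met them under median centring (−0.21) or without array 2 (−0.996) or array 3 (−0.77). Nor did it without background subtraction (−1.09), with the processed signals (−1.14) or log ratio (−1.11) of the software, or with dim probes left out (unchanged at −1.06). The highest was the effector-like *Bok* (0.77 ± 0.99, from 0.26 to 1.24 with 1 array left out and 1.38 under median centring) and the lowest the mitophagy receptor *Bnip3l* (−1.21 ± 1.37, or −0.41 without array 2 and −0.43 under median centring). Downstream, 21 genes of the apoptosome, caspases and their inhibitors had 13 means above 0 and a median of 0.15, which was 0.92 under median centring, 0.65 over the probes that were not dim, 0.42 without array 1 and 0.46 without array 2. Under median centring 7 of them met both criteria, as did 6.56% of all tested probes. At the brightest probe 2 met both criteria, *Diablo* (1.59 ± 1.12), whose product relieves caspases of their inhibitors, and *Cflar* (2.15 ± 1.37), whose product FLIP restrains caspase 8. The *Diablo* probe was well above background in only 2 of 3 WT channels. On array 1, where its ratio was 2.28, its WT signal was 38.3 beside a local background of 33. The other probe of *Diablo* was at 0.21, and those of *Cflar* ran from 0.00201 to 0.36. Without array 3 *Diablo* (1.29) and *Cflar* (1.53) no longer met them, nor did *Diablo* without array 1 (1.24) or *Cflar* without array 2 (2.04). Under loess normalization *Diablo* (1.38) and *Cflar* (2.19) did not meet them, nor did *Diablo* with the processed signals (2.85) or the log ratio (3.02) of the software. *Cycs*, the gene of cytochrome c, did not meet them at its brightest probe (0.65 ± 1.82) but did at its other probes (1.72 ± 0.68 and 1.78 ± 1.11), singled out after their values were seen. *Casp8* was the lowest, at −2.13 ± 2.38, was −1.38 under median centring and met both criteria without array 2 (−3.50). Upstream, 24 regulators of BCL2 family genes had 14 means above 0 and a median of 0.45. The median was −0.41, 0.57 and 0.17 on arrays 1, 2 and 3, and 0.81, −0.13 and 0.18 without array 1, 2 or 3. Under median centring it was 1.05, with 21 of 24 above 0 and 7 past both criteria, beside the same 6.56%. *Fbxw7*, the ubiquitin ligase subunit that targets MCL1 for destruction, was the one that met both criteria at its brightest probe (2.80 ± 0.78, adjusted p of 0.763 by limma) and was higher on all 3 arrays, while its other probe, at 0.59 ± 0.59, did not meet them. A dimmer probe of *Foxo1*, also singled out after its value was seen, met them too (0.94 ± 0.49), but was well above background in only 1 of 3 WT channels. The brightest *Foxo1* probe did not meet them, at 2.47 ± 2.20 with −0.03 on array 2. The lowest of the 24 regulators was *Trp53* (−1.24 ± 1.54), which encodes the p53 that induces *Bbc3* and *Pmaip1*. It was −0.05 under median centring, met both criteria without array 2 (−2.12) and was at 0.10 at its other probe. None of the genes on these lists had an adjusted p under 0.05 by limma.

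Mast cell markers were well above background in the sorted cultures. Of 14 marker probes, 13 were well above background in all WT channels and 14 in all *p85α−/−* channels. Their median log2 ratio was 1.47, 13 of the 14 means lay above 0, and 5 met both criteria: *Kit* (2.06), *Fcer1g* (1.76), *Cma1* (2.37), *Srgn* (1.48) and *Il1rl1* (2.59), while *Mcpt4* was the lowest at −0.89. It met both criteria without array 1 (−2.26), and was −0.13 without array 3 and 0.27 under median centring. *Cma1* no longer met both without array 1 (1.83) or array 2 (1.90), and neither did *Srgn* (1.30 and 1.31). Nor did *Cma1* under loess normalization (1.92) or *Srgn* with the processed signals of the software (1.36). Their summed level was 16.21, 15.44 and 15.72 in WT and 17.58, 17.32 and 16.89 in *p85α−/−* cultures, with the chymase gene *Cma1* as the brightest. Among the neutrophil genes, *Ctsg* (1.86), *S100a8* (2.14) and *S100a9* (2.55) met both criteria, and *Ltf* was the lowest at −0.55 (−0.91 to −0.07 with 1 array left out). *S100a8* and *S100a9* no longer met both without array 1 (1.88 and 2.05) or array 3 (1.52 and 2.03), nor did *S100a8* under loess normalization (2.22). The median of 9 macrophage genes was −0.19 (from *Emr1* at −1.39 to *Mrc1* at 0.91). It was −0.23, −0.12 and −0.10 without array 1, 2 or 3. *Mrc1* has 1 probe, which was dim, and with dim probes left out 2 of 8 macrophage genes lay above 0. The summed level of macrophage genes was 12.10, 13.17 and 12.69 in WT and 12.27, 12.30 and 12.08 in *p85α−/−* cultures. Basophil genes had a median of −0.14 (*Itga2* at −0.84, *Cd200r3* at 0.93) that was −0.61, 0.58 and 1.65 on arrays 1, 2 and 3, and 0.09, 0.52 and −0.63 without array 1, 2 or 3. Erythroid genes had a median of 0.02 (*Hbb-b1* at −0.72, *Hba-a1* at 0.43). It was 0.08, −0.24 and 0.21 on arrays 1, 2 and 3, and −0.02, 0.19 and −0.08 without array 1, 2 or 3. The genes named from these 3 lists moved widely with 1 array left out, *Emr1* from −1.96 (past both criteria, without array 3) to −0.85, *Mrc1* from 0.08 to 1.43, *Itga2* from −1.99 (past both, without array 2) to 0.09, *Cd200r3* from 0.31 to 1.96 (past both, without array 1), *Hbb-b1* from −1.14 to −0.27 and *Hba-a1* from −0.59 to 1.13. *Mrc1* was 2.29 and 2.83 with the processed signals and the log ratio of the software, and *Hbb-b1* was 0.37 under median centring. Under median centring the medians of macrophage, basophil and erythroid genes were 0.35, 0.93 and 0.37, and those of mast cell and neutrophil genes 2.41 and 2.59. Over the mean of the arrays the neutrophil median was 1.51, and it was 1.21, 1.77 and 0.83 without array 1, 2 or 3. *Bbc3* was positive on all 3 arrays, as were the medians of the mast cell list (1.20, 1.62 and 1.33), the neutrophil list and the list of caspases (0.60, 0.30 and 0.32), and the part of the cells' composition in it was not tested.

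From the RefSeq table of promoters (GRCm38.p6, 300 bases around each start), 15 promoters of 9 members were searched. *Pmaip1* was left out of this search, so the counts below do not speak to its promoter. The forkhead motif of FOXO factors, GTAAACA on either strand, stood in 2 of the 15, 1 each of *Bcl2l11* and *Bbc3*, and in 3.65% of all 32851 promoters. The E-box CACGTG stood in 2 (*Bax* and *Bbc3*; 7.15% of all), the STAT motif TTCNNNGAA in 0 (8.3% of all) and the GC box GGGCGG in 10 (35.7% of all). The *Bcl2l11* and *Bbc3* promoters are shown because they hold the FOXO letters, in capitals, on the same strand at chr2:128125788-128126087 and as the reverse complement at chr7:16310011-16310310, both read on the plus strand. A match is a description of the letters, and binding was not measured.
Bcl2l11: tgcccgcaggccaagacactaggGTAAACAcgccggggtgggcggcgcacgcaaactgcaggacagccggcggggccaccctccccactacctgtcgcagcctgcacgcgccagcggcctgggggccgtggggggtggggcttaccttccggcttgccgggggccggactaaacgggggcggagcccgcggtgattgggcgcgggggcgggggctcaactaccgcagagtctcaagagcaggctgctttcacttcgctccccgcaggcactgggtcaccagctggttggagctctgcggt
Bbc3: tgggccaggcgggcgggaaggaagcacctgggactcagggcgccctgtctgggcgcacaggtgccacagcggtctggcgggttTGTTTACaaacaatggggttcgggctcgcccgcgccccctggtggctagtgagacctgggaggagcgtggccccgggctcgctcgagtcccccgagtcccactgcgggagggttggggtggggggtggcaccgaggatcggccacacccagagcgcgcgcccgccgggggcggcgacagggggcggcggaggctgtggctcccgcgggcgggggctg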

How the data were processed

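Gene expression was measured in SCF-treated MCps of 3 WT and 3 *p85α−/−* mice on 3 Agilent arrays, each pairing 1 WT (Cy3) with 1 *p85α−/−* culture (Cy5), without a dye swap. The 3 arrays share 1 slide and 1 scan day, which leaves no batch for a test, and the labels hold 0 other columns per sample. The authors deposited spot intensity values from Agilent Feature Extraction 9.5.1.1, as the mean of each spot with the median of its local background. The deposited log10 ratio per spot comes from the same software, and the table of the authors gives a log10 ratio for each probe on each array, with column medians of 0, 0.0253 and −0.00362. In that table replicate 1 equals the scanner on 40929 of 40929 single-spot probes, and replicates 2 and 3 on 190 and 226 (tolerance 1.5e-05 in log10). Yet 40927 and 40927 of the scanner's values of these replicates can be paired with a value somewhere in their own column, so most stand on other probes. An average over its 3 columns is therefore no value of 1 probe. The table served only as an alternative, and none of its values is given for a gene.

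In R 4.3.3 with limma 3.58.1, normexp background correction (offset 50) and quantile normalization over all 6 channels (log2) were applied to the intensity values. Control spots and outlier-flagged spots were left out, and spots of a probe were averaged. A value on every array was left for 41157 of 41174 probes, all 18 member probes among them. The log2 ratio per array was tested against 0 with limma (intercept only, eBayes), adjusting over all tested probes by Benjamini-Hochberg. This ratio pairs the cultures of an array. Across probes, the deviations of both cultures of an array from their group means correlated at 0.06, −0.06 and −0.02. The procedure was tested on simulated data.

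Every member was named with all its probes. From the other lists, genes meeting both criteria (1.5-fold, unadjusted limma p under 0.05), the highest, the lowest and *Pik3r1* were named. Results for 1 of the marker lists are not reported here. Of the 17 mast cell names, several are older names of the same gene. Members and lists were chosen with earlier results of these data known, so lists were counted and not tested. Probe positions come from the array's annotation, where no build is named.

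As alternatives, the values were normalized by loess with Aquantile, centred on each array's median, left without background subtraction, or replaced by the processed signals or the log ratio of the software or by the authors' table. Dim probes were left out, or outlier spots were kept. The test was replaced by the methods' t-test (unpaired, paired) or by limma without pairing. Each replicate was left out in turn. A gene was given the mean or the median over its probes. Chosen after seeing the data, the median over the spots of a probe replaced their mean. Unstimulated cells, protein and cell death were not analysed here.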

Additional observations from a re-analysis of the deposited data

How the results depend on the processing

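Under all 15 alternative fits, 0 probes had an adjusted p under 0.05 by the test used, and 1262 to 3165 had an unadjusted p under 0.05. The number of probes past both criteria was 1829. The methods' t-test gave 1125 in its unpaired and 819 in its paired form, and leaving out 1 replicate gave 1557 to 3165. Other tests leave a mean as it is, so signs were compared over the 5 other normalizations and background corrections. The brightest probes of *Bcl2l1*, *Bcl2l11*, *Bad*, *Bbc3* and *Bax* kept theirs under 5, those of *Bcl2*, *Mcl1* and *Bak1* under 4 and that of *Pmaip1* under 3. Median centring gave *Bcl2* 1.27, *Mcl1* 0.41, *Pmaip1* 1.36, *Bak1* 0.22 and an effector median of 0.50. The log ratio of the software gave *Pmaip1* 0.0485. The mean over the probes of a gene gave *Bcl2* 0.57, *Mcl1* 0.0122, *Bad* 0.14, *Bak1* 0.31 and an effector median of 0.27, and the median over probes gave 0.30, 0.0122, 0.14, 0.31 and 0.27. The anti-apoptotic median was 0.16 and 0.13 with the mean and the median over probes. The cause was not tested.

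With 1 replicate left out, the mean log2 ratio ran from −0.37 to 0.23 for *Bcl2*, −0.94 to 2.16 for *Bcl2l1*, −3.03 to 1.51 for *Mcl1*, −0.25 to 1.70 for *Bcl2l11*, −1.18 to −0.03 for *Bad*, 0.52 to 1.34 for *Bbc3*, −0.64 to 0.47 for *Pmaip1*, −0.12 to 0.55 for *Bax* and −1.54 to −0.41 for *Bak1*. The class medians ran from −0.37 to 1.51 (anti-apoptotic), −0.42 to 0.66 (BH3-only) and −0.50 to −0.07 (effector). The second *Bcl2* probe met both criteria under 5 alternatives: median centring, processed signals, dim probes left out, limma on unpaired channels, and without replicate 2. Of the 18 member probes, 16 were well above background in every channel. The exceptions, the third probes of *Bcl2* and *Bcl2l11*, were so in 2 and 1 of 3 WT channels.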
